A study of Mus musculus with 8 samples.

Results

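The 10 genes of classical MHC class I presentation considered here were the heavy chains H2-K1 and H2-D1, the light chain B2m, the peptide transporter genes Tap1 and Tap2, the bridging chaperone gene Tapbp, the immunoproteasome subunit genes Psmb8, Psmb9 and Psmb10, and the transactivator gene Nlrc5. They were taken by gene symbol from the deposited tables, in which 16786 of 21051 listed genes had a value in the 7 complete libraries. All 10 were found and all 10 passed the filter on low counts, among 12412 genes tested. Tumor-associated macrophages (TAMs) were sorted as CD45+F4/80+ cells from s.c. B16 melanomas of C57BL/6 mice on day 14 after injection. The TAM-WT group held 4 libraries from WT mice and the TAM-KO group held 4 libraries from Colec11-/- mice, whose own cells lack collectin-11. The study detected very low Colec11 mRNA in CD45- cells of tumors in these mice. It takes this to imply that melanoma cells make a little collectin-11. The study used young adult male mice with WT littermates as controls and gives 4 mice a group for these data.

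Cells display short peptides of their own proteins on MHC class I molecules to CD8 T cells. The proteasome cuts proteins into peptides, the TAP transporter carries the peptides into the endoplasmic reticulum, tapasin (Tapbp) holds an empty heavy chain and B2m next to TAP, and the loaded molecule goes to the cell surface. Under interferon gamma, 3 catalytic subunits of the proteasome are replaced by their inducible forms, and NLRC5, which does not bind DNA by itself, is recruited to class I promoters by factors bound to a conserved set of boxes.

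Of the 10 genes, 7 lie on chromosome 17, in or near the MHC, 2 on chromosome 8 (Nlrc5 and Psmb10) and 1 on chromosome 2 (B2m). In GRCm38.p6, Psmb9, Tap1, Psmb8 and Tap2 stand next to each other within 34.3 kb, from 34182030 to 34216321 on chromosome 17. Psmb9 and Tap1 are read in opposite directions from starts 226 bases apart, so a single stretch serves as the promoter region of both. H2-K1 covers 33996012 to 34000619 and H2-D1 covers 35263094 to 35267497 on the same chromosome, and the span from Tapbp to H2-D1 is 1.35 Mb. The deposited annotation, however, places the measured H2-K1 entry on the scaffold NT_187027.1 and not on chromosome 17.

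RefSeq promoter sequences of GRCm38.p6, each 300 bases long, were found for 8 of the 10 genes and not for Nlrc5 and Tap2. The 250 bases before the start are shown for a heavy chain, for B2m and for the stretch shared by Tap1 and Psmb9, all read on the plus strand, because they include the gene with the smallest fold change of the 10 (H2-D1) and a DEG (Psmb9). Capitals mark matches to 5 motifs searched on both strands, which were the interferon-stimulated response element (a pair of GAAA runs with any 2 bases between), the interferon gamma activated site TTCNNNGAA, the NF-kB consensus site, the CRE core TGACG of the X2 box (CGTCA on the other strand) and the CCAAT box of factor NF-Y (ATTGG on the other strand).
H2-D1, chr17:35262844-35263093: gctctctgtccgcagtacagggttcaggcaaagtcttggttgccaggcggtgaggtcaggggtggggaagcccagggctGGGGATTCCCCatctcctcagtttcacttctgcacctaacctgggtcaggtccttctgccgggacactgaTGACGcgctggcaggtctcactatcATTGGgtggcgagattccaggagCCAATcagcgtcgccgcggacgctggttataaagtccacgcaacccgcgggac
B2m, chr2:122147437-122147686: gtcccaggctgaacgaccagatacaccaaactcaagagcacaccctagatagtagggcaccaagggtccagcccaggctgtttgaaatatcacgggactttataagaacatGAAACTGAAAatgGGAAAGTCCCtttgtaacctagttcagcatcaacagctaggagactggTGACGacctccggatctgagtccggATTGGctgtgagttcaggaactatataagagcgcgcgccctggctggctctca
Tap1 and Psmb9, chr17:34187306-34187555: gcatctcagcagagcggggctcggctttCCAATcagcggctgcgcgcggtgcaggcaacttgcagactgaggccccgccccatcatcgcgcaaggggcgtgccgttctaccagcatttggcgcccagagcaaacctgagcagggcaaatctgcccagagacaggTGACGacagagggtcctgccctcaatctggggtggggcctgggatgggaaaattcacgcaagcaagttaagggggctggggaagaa

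The heavy chain promoter held an NF-kB site, then TGACG, then a reversed CCAAT box and a forward one. H2-K1 held the same 4 matches in the same order. The distance from the start of TGACG to the start of the reversed CCAAT box was 25 bases in H2-K1, 25 bases in H2-D1 and 25 bases in B2m, while the NF-kB site began 70 bases before TGACG in both heavy chains and 48 bases before it in B2m. B2m alone of the 8 genes matched the response element pattern as searched, directly before its NF-kB site. A further TGACG lay after the start of B2m. The pattern was strict, so a promoter without a match, such as those of the heavy chains, may still hold a looser form of the element. The Tap1 and Psmb9 stretch, read toward Tap1, held TGACG and CCAAT in the reverse order and much farther apart. Read toward Psmb9, it held a reversed TGACG 144 bases before the start and then a reversed CCAAT box 8 bases before it. Psmb8 held only an interferon gamma activated site, Tapbp only 2 CCAAT boxes and Psmb10 none of the 5. Of 32851 mouse promoters of the same length, 3.44% held the response element, 8.3% the activated site, 8.46% the NF-kB site, 20.8% TGACG and 37.4% a CCAAT box. A match is a run of letters and was not tested for binding.

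Gene-assigned reads numbered 16225362 to 17280267 a library, except in TAM-KO 1, whose table stops listing genes partway and lacks 5311 of them. H2-D1 and B2m have no value for TAM-KO 1, while H2-K1, Psmb8 and Psmb9 have an FPKM for it only in the authors' table of the whole series. These 5 genes were tested on 3 TAM-KO libraries and the other 5 on 4. FPKM, in which fragments are scaled by transcript length and library depth, is the level given below. Read counts behind each value ran from 355 (Psmb9 in TAM-WT 2) to 44188 (B2m in TAM-KO 2), and the precision was limited by the spread between libraries. Colec11 had 0 to 4 expected counts in TAM-WT libraries and 1 in each TAM-KO library, so its RNA could not check the labels at this depth. Macrophage markers were abundant in the 7 complete libraries, with the 7 markers summing to 4040 to 4920 FPKM in TAM-WT and 4052 to 4682 in TAM-KO. Single markers differed in direction, 2 of 7 higher and 5 lower in TAM-KO, so the sums do not show equal macrophage content. Cd68 averaged 2075 FPKM in TAM-WT and 1518 in TAM-KO 2 to 4, and C1qa 1795 and 2100. None of the 7 passed the test described below at an adjusted p of at most 0.05.

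All 10 genes had a higher mean in TAM-KO, and 4 of them (Nlrc5, Psmb9, Tap2 and Psmb10) passed the test of edgeR's quasi-likelihood method at an adjusted p of at most 0.05. Of all genes tested, 4.58% rose and 5.24% fell by this rule, 9.81% in all. The median log2 fold change of the 10 genes was 0.63, against 0.0 over all genes tested, and 8 of 10 had an unadjusted p under 0.05, as did 30.7% of all genes. Differentially expressed genes (DEGs), which also had to differ at least 2-fold, were Nlrc5 and Psmb9, while 1.41% of all genes were higher by that rule. Bulk RNA cannot tell a higher level per macrophage from a different mixture of cells. The groups did not overlap in FPKM for 5 of the 10 genes (B2m, Tap2, Psmb9, Psmb10 and Nlrc5), against 13.5% of all genes that were higher without overlap and 5.41% that were lower. Genes without a TAM-KO 1 value, B2m among them, were compared on 3 TAM-KO libraries here. In all 10 genes TAM-WT 1 was the highest TAM-WT library and TAM-WT 2 the lowest, and in each of the 8 genes with a value for it TAM-KO 1 was the lowest TAM-KO library. The calls depended on which libraries were kept, for these genes and for all genes alike. Leaving out TAM-WT 3, TAM-KO 2 or TAM-KO 3 left 0 of the 10 called by edgeR, and 1.21%, 0.617% and 0.617% of all genes. Leaving out TAM-WT 4 left 1 of the 10 (Nlrc5) and 3.34% of all genes. Without TAM-WT 1 there were 6 of the 10 and 9.31% of all genes, and without TAM-WT 2 there were 6 of the 10 and 22.2% of all genes. At an unadjusted p under 0.05, edgeR counted 7 of 10 without TAM-WT 3, 7 without TAM-KO 2 and 7 without TAM-KO 3, beside 22.6%, 21.5% and 23.2% of all genes. The 10 log2 fold changes stayed positive under every alternative tried. Scaling to total reads in place of TMM called 7 of the 10, and moved the share of higher genes among all calls from 46.6% to 64.4%.

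**Figure D1:**
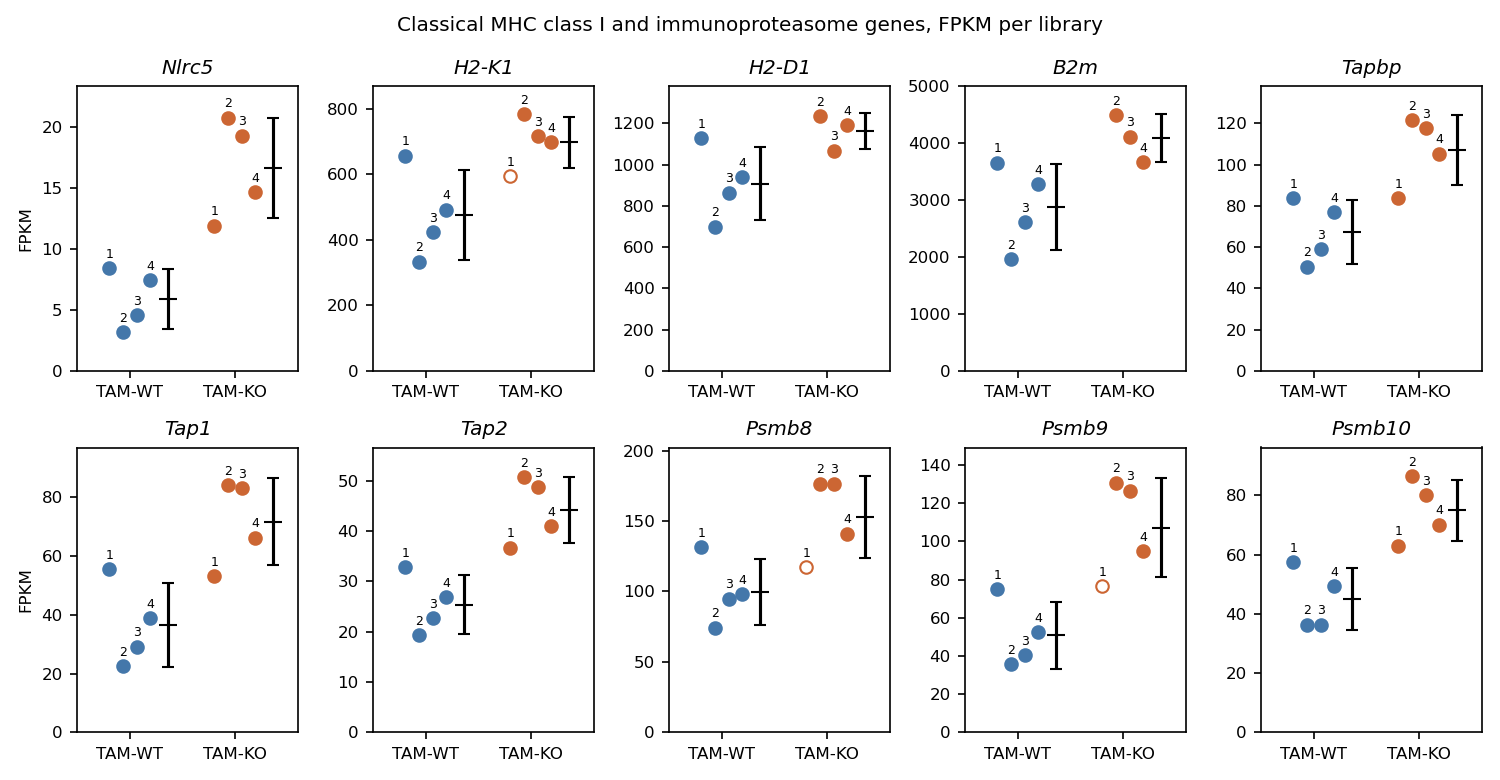
FPKM of the 10 genes in each library (numbered points), with the mean and SD beside each group. Open points are TAM-KO 1 values taken from the authors' table of the whole series, H2-D1 and B2m have no TAM-KO 1 value, and TAM-WT 1 lies at the top of the TAM-WT libraries in all 10 panels.

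Nlrc5, the transactivator of class I genes, had the largest fold change of the 10. It stood at 8.41, 3.16, 4.56 and 7.46 FPKM in TAM-WT 1 to 4 and at 11.92, 20.78, 19.32 and 14.68 FPKM in TAM-KO 1 to 4. Every TAM-KO library was above every TAM-WT library, with TAM-KO 2 and 3 the highest and TAM-WT 2 the lowest. The TAM-WT mean was 5.9 ± 2.45 FPKM (SD, n = 4), and the TAM-KO mean was 16.7 ± 4.1 FPKM (SD, n = 4). The fitted log2 fold change was 1.37 with an SE of 0.29 (edgeR adjusted p = 0.0265).

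The heavy chains and B2m were by far the most abundant of the 10 and differed least. H2-K1, the classical heavy chain of the K locus, was at 656.1, 333.47, 422.85 and 491.15 FPKM in TAM-WT 1 to 4 and at 593.12, 781.94, 714.78 and 697.84 in TAM-KO 1 to 4, the first of these from the series table. TAM-WT 1 lay above TAM-KO 1, so the groups overlapped. The log2 fold change was 0.50 with an SE of 0.20 and an edgeR adjusted p of 0.125. H2-D1, the heavy chain of the D locus, was at 1128.65, 698.51, 864.92 and 939.78 FPKM in TAM-WT and at 1235.78, 1067.74 and 1190.43 in TAM-KO 2 to 4. TAM-WT 1 was above TAM-KO 3. The log2 fold change of 0.26 with an SE of 0.16 was the smallest of the 10 (edgeR adjusted p = 0.311). Shared sequence limits both heavy chains, since 8.79% of the 50-base words of H2-K1 and 14.3% of those of H2-D1 also occur in transcripts of other genes, while the other 8 genes shared at most 2%. Summing 15 H2-K, D, Q and T genes into one feature gave a log2 fold change of 0.37 (edgeR adjusted p = 0.204). Over all alternatives the adjusted p of edgeR, DESeq2 and limma ran from 0.041 to 0.277 for H2-K1 and from 0.134 to 0.495 for H2-D1.

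B2m, the light chain shared by all class I molecules, was at 3657.81, 1958.32, 2613.73 and 3281.35 FPKM in TAM-WT 1 to 4 and at 4497.49, 4112.48 and 3664.76 in TAM-KO 2 to 4. The groups did not overlap, but TAM-KO 4 lay only just above TAM-WT 1. The log2 fold change was 0.41 with an SE of 0.20 and did not pass the test (edgeR adjusted p = 0.204). FPKM of B2m over the summed heavy chains was 1.9 to 2.29 in TAM-WT and 1.94 to 2.31 in TAM-KO 2 to 4, and the groups overlapped. The ratio of H2-D1 to H2-K1 was 1.72 to 2.09 in TAM-WT and 1.49 to 1.71 in TAM-KO, a description without a test.

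The genes of the peptide-loading complex lay between. Tap1, which encodes one chain of the TAP transporter, was at 55.5, 22.45, 29.18 and 38.86 FPKM in TAM-WT and at 53.15, 84.21, 83.18 and 66.27 in TAM-KO. TAM-WT 1 reached the level of TAM-KO 1, and the other 3 TAM-WT libraries were below all TAM-KO libraries. Its log2 fold change of 0.87 with an SE of 0.25 missed the threshold (edgeR adjusted p = 0.0546). Tap2, which encodes the partner chain, was at 32.8, 19.28, 22.67 and 26.87 FPKM in TAM-WT and at 36.71, 50.66, 48.76 and 40.96 in TAM-KO. It rose without overlap, with a log2 fold change of 0.69 and an SE of 0.16 (edgeR adjusted p = 0.0302). The Tap1 to Tap2 ratio in FPKM was 1.16 to 1.69 in TAM-WT and 1.45 to 1.71 in TAM-KO, so the ranges overlapped. Tapbp, the tapasin gene, was at 83.84, 50.43, 58.91 and 76.87 FPKM in TAM-WT and at 83.67, 121.68, 117.74 and 105.35 in TAM-KO. TAM-WT 1 and TAM-KO 1 met at the same level, and the log2 fold change was 0.56 with an SE of 0.17 (edgeR adjusted p = 0.0626).

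The 3 immunoproteasome subunits each replace one constitutive catalytic subunit in the proteasome core. Psmb8 (beta 5i, for Psmb5) was at 131.29, 74.42, 94.99 and 97.88 FPKM in TAM-WT and at 117.2, 176.38, 176.51 and 141.09 in TAM-KO, the first from the series table. TAM-WT 1 was above TAM-KO 1, and the log2 fold change was 0.62 with an SE of 0.17 (edgeR adjusted p = 0.0544). Psmb9 (beta 1i, for Psmb6) was at 75.04, 35.72, 40.48 and 52.58 FPKM in TAM-WT and at 76.58, 130.86, 126.46 and 94.96 in TAM-KO, the first from the series table. All TAM-KO values were higher, TAM-KO 1 only narrowly above TAM-WT 1, and the log2 fold change was 1.11 with an SE of 0.23 (edgeR adjusted p = 0.0285). Psmb10 (beta 2i, for Psmb7) was at 57.5, 36.28, 36.33 and 49.37 FPKM in TAM-WT and at 63.03, 86.39, 79.98 and 70.13 in TAM-KO. The groups did not overlap, with a log2 fold change of 0.64 and an SE of 0.15 (edgeR adjusted p = 0.033).

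Of the 3 constitutive partners, none was called higher and 1 was called lower. Psmb5 was at 109.33, 124.5, 100.26 and 111.15 FPKM in TAM-WT and at 130.94, 115.27, 115.93 and 125.62 in TAM-KO, with a log2 fold change of 0.04 and an SE of 0.07 (edgeR adjusted p = 0.767), which turned to -0.02 on 6 libraries. Psmb6 was at 217.23, 215.88, 232.25 and 227.67 FPKM in TAM-WT and at 168.02, 146.27, 160.91 and 187.17 in TAM-KO. Each TAM-KO library was below each TAM-WT library, and Psmb6 fell by 0.53 on the log2 scale with an SE of 0.10 (edgeR adjusted p = 0.0205). Psmb7 had a log2 fold change of -0.19 with an SE of 0.06 (edgeR adjusted p = 0.0805).

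The ratio of each inducible subunit to its partner, taken within a library, does not depend on that library's depth. Psmb9 to Psmb6 was 0.345, 0.165, 0.174 and 0.231 in TAM-WT 1 to 4 and 0.456, 0.895, 0.786 and 0.507 in TAM-KO 1 to 4. The groups did not overlap, and without the TAM-KO 1 value the ratio was 3.24-fold higher in TAM-KO, a log2 difference of 1.70 (exact permutation test over libraries, two-sided, p = 0.0286, adjusted over 3 ratios 0.0429). Psmb10 to Psmb7 was 0.33, 0.192, 0.204 and 0.285 in TAM-WT and 0.369, 0.52, 0.493 and 0.463 in TAM-KO. It was 1.86-fold higher without overlap (exact permutation p = 0.0286, adjusted 0.0429), and for both ratios p was the smallest these group sizes allow. With a library other than TAM-KO 1 left out the adjusted p of both ratios was 0.0857 to 0.15 (exact permutation), and groups that small cannot bring it under 0.05. Psmb8 to Psmb5 was 1.2, 0.598, 0.947 and 0.881 in TAM-WT and 0.895, 1.53, 1.52 and 1.12 in TAM-KO. These groups overlapped, with a log2 difference of 0.65 (exact permutation p = 0.0857, adjusted 0.0857), or 0.49 with the series value of TAM-KO 1 (exact permutation p = 0.171). The 3 inducible genes made up 34.5%, 21.7%, 25.2% and 28.1% of the summed FPKM of the 6 catalytic genes in TAM-WT and 35.3%, 47.9%, 46.6% and 39.7% in TAM-KO.

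**Figure D2:**
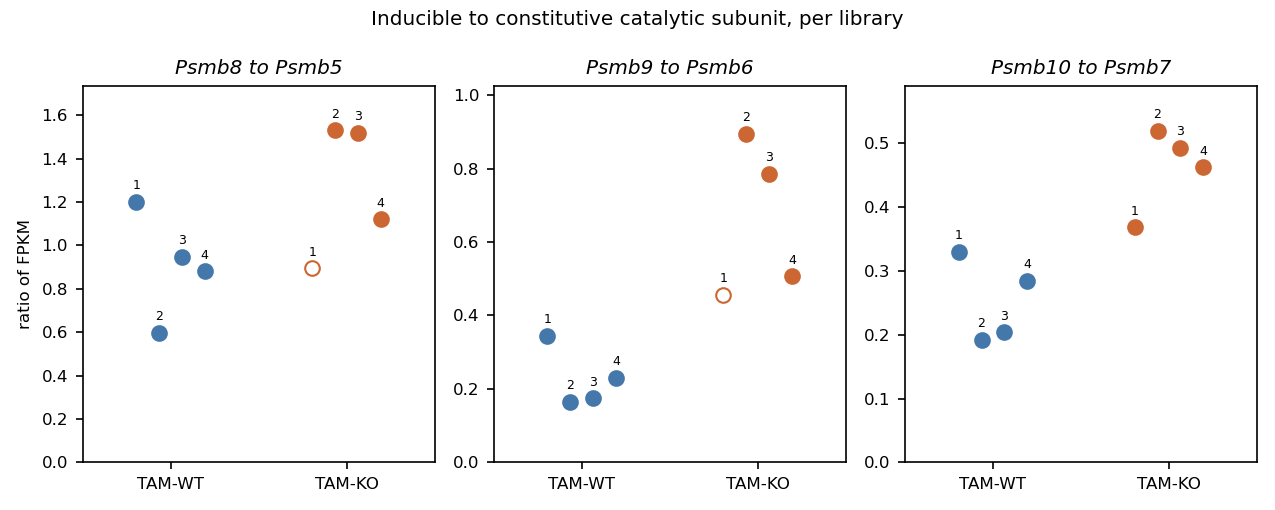
Ratio of FPKM of each inducible subunit to the constitutive subunit it replaces, per library, with open points for TAM-KO 1 values that use the series table. The groups are apart for Psmb9 to Psmb6 (at most 0.345 in TAM-WT and at least 0.456 in TAM-KO) and for Psmb10 to Psmb7, and overlap for Psmb8 to Psmb5.

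Of 75 measured genes of 8 further antigen processing lists, 6 rose and 2 fell, a share near the 9.81% of all genes that were called, with a median log2 fold change of -0.01. The genes below are therefore given for their own values and not as a result about the lists. The count of 8 fell to 0 without TAM-WT 3, TAM-KO 2 or TAM-KO 3, to 3 without TAM-WT 4, to 4 without TAM-KO 1 and to 5 without TAM-KO 4. In the list of peptide loading and trimming, 1 of 14 rose. This was Tapbpl, which encodes TAPBPR, a tapasin-related peptide editor, with a log2 fold change of 0.97 (SE 0.18, edgeR adjusted p = 0.0209). Calr, Canx and Pdia3, the general chaperones that also serve class I folding, had log2 fold changes of -0.04, -0.01 and 0.09. Tapbpl stood at 5.7 to 9.25 FPKM in TAM-WT and 11.43 to 19.08 in TAM-KO without overlap.

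None of 11 other genes of the 20S core (median log2 fold change -0.03, 1 at an unadjusted p under 0.05) and none of 5 genes of proteasome assembly (median 0.06, 0 at an unadjusted p under 0.05) were called by edgeR, and DESeq2, limma voom and limma on FPKM called 0 of each list too. Psmb3 had the highest mean of the former (log2 fold change 0.02) and Pomp, which helps to assemble immunoproteasomes, of the latter (0.09). Among 4 activator genes, Psme1 and Psme2, which form the interferon-inducible PA28 ring, rose by 0.46 and 0.47 on the log2 scale (SE 0.12 for each, edgeR adjusted p = 0.0423 and 0.0426). Psme3, which forms the nuclear PA28 gamma ring, had a log2 fold change of 0.04. In the 19S regulator, 16 of 17 genes had a negative log2 fold change with TMM scaling, 13 with total reads and 10 on FPKM, so the sign count depends on the scale. The 1 called gene was Psmd8, which fell by 0.50 on the log2 scale (edgeR adjusted p = 0.0241).

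**Figure D3:**
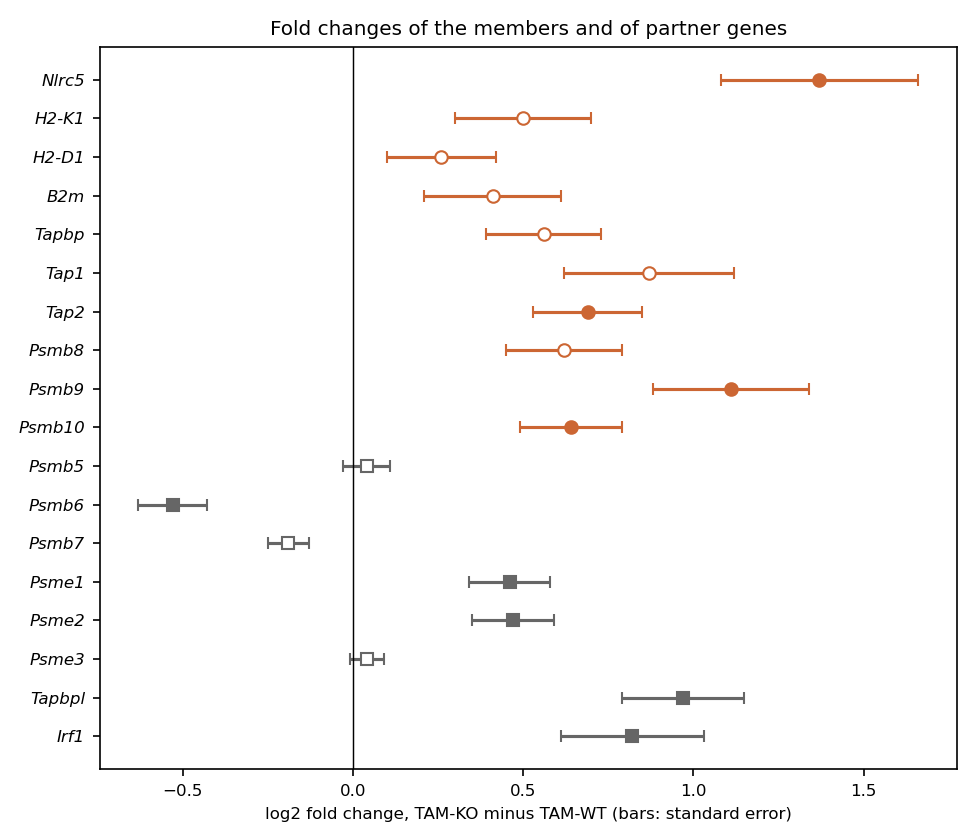
Log2 fold changes (TAM-KO minus TAM-WT) with their SE for the 10 genes (circles) and for 8 partner genes (squares), filled where the edgeR adjusted p was at most 0.05. All 10 circles lie above 0, Psmb6 lies below it, and Psmb5 and Psme3 lie near it.

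Of 14 genes that regulate class I transcription, 2 rose. Irf1, an interferon-induced factor that binds response elements, had values of 38.69, 23.56, 34.23 and 43.26 FPKM in TAM-WT and 58.1, 68.34, 79.02 and 52.85 in TAM-KO. It rose by 0.82 on the log2 scale with an SE of 0.21 (edgeR adjusted p = 0.0488). This call held in 1 of 8 fits with a library left out, without TAM-WT 2, and was lost with DESeq2 size factors (edgeR adjusted p = 0.0503). Every TAM-KO library was above every TAM-WT library. Rfx5, whose product binds the X1 box of class I and II promoters, rose by 0.37 (edgeR adjusted p = 0.0361), while Rfxap and Rfxank, its partners, had log2 fold changes of -0.03 and 0.13. Ciita, the class II transactivator related to Nlrc5, had 0.77 with an SE of 0.41 (edgeR adjusted p = 0.238). Of 7 genes of interferon gamma signalling, Socs1, a feedback inhibitor, rose by 1.45 (edgeR adjusted p = 0.0393), and the receptor genes Ifngr1 and Ifngr2 had log2 fold changes of -0.06 and 0.08. The Socs1 call held in 4 of 8 fits with a library left out. It was lost with TAM-KO 1 filled from the series table (1.25, edgeR adjusted p = 0.0592). Socs1 was at 9.51 FPKM in TAM-KO 1, below the 10.49 of TAM-WT 1. Irf1, Ciita, Socs1 and Ifng were tested on 3 TAM-KO libraries, and their TAM-KO 1 FPKM came from the series table. Ifng itself was at 2.49, 0, 0.12 and 0 FPKM in TAM-WT and at 3.59, 7.77, 6.11 and 2.15 in TAM-KO. TAM-WT 1 was the highest TAM-WT library here too and lay above TAM-KO 4. The log2 fold change was 2.94 with an SE of 1.04 (edgeR adjusted p = 0.102). It was 6.66 without TAM-WT 1 (edgeR adjusted p = 0.012), where the other TAM-WT libraries are at or near 0, and over all alternatives the adjusted p of edgeR, DESeq2 and limma ran from 0.012 to 0.315.

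**Figure D4:**
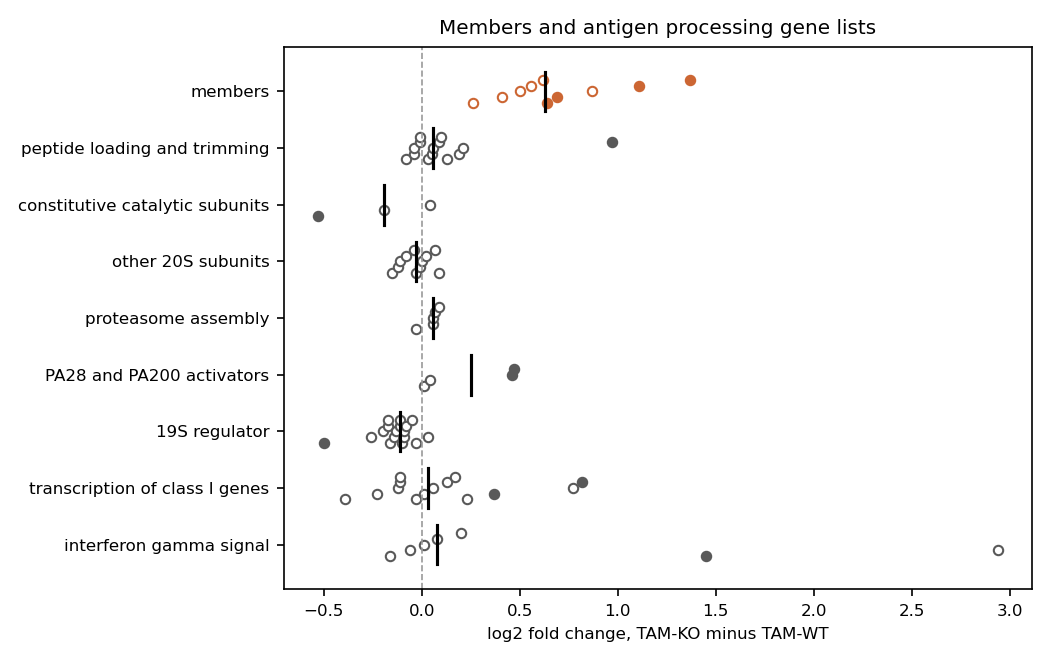
Log2 fold change of each gene of the 10 and of the 8 lists, with the list median as a bar, filled where called. The 10 genes have a median of 0.63, the other lists have medians from -0.19 to 0.25, and the dashed line is the median of all genes tested.

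The 10 genes varied together across libraries, though they did not all put the libraries in the same order. Over 7 complete libraries, Pearson's r of log2(CPM + 1) between pairs of the 10 ranged from 0.79 to 1.0 with a median of 0.96 over 45 pairs, in libraries that share a group difference and depth. The mean of the 10, each centred on its own mean, was 0.07, -0.86, -0.41 and -0.15 in TAM-WT 1 to 4 and 0.54, 0.47 and 0.33 in TAM-KO 2 to 4. TAM-WT 2 lay farther from TAM-WT 1 than TAM-WT 1 did from TAM-KO 4. The non-member genes most like that mean, of 10364 compared, were Il18bp (0.998), Gbp9 (0.997), Ly6e (0.996), Uba7 (0.996), Tlr9 (0.995), Hrh2 (0.995), Gbp2 (0.994), Trafd1 (0.993), Cfb (0.993) and Ptpn6 (0.992), each with r over 7 libraries. Il18bp encodes a soluble inhibitor of IL-18 and rose by 1.11 on the log2 scale (edgeR adjusted p = 0.0496).

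**Figure D5:**
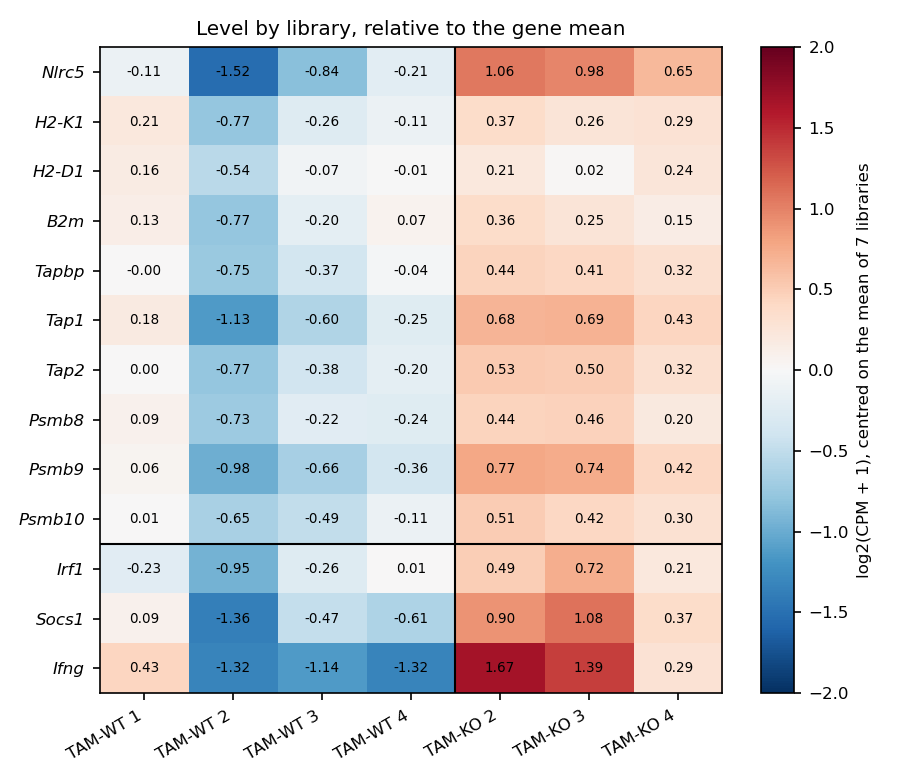
Level of the 10 genes and of Irf1, Socs1 and Ifng by library as log2(CPM + 1) minus the gene mean over 7 libraries, without TAM-KO 1. TAM-WT 2 is the lowest library for each of the 10 genes, and TAM-WT 1 lies nearer to TAM-KO 4 than to TAM-WT 2 in most rows.

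Markers of T cells and NK cells ranked the TAM-WT libraries with TAM-WT 1 at the top, like the 10 genes. The macrophage, B cell, neutrophil and dendritic cell sums were also highest there among TAM-WT libraries, by smaller proportions. They were 4920 (next 4798), 7.19 (next 4.8), 32.5 (next 29) and 17.6 (next 13.4) FPKM. TAM-WT 1 was the highest TAM-WT library for 2 of 7 macrophage, 1 of 5 B cell and 3 of 6 neutrophil markers. Melanoma and fibroblast sums were highest in TAM-WT 2, the lowest library for the 10 genes, and the endothelial sum in TAM-WT 4. T cell markers summed to 2.28 to 17 FPKM in TAM-WT and 19.5 to 51.2 in TAM-KO, and NK cell markers to 0.87 to 18.6 and 20.8 to 68.3, over 7 libraries. TAM-WT 1 held the highest T cell sum of TAM-WT (17, next 3.6) and the highest NK sum (18.6, next 2.56), and was the highest TAM-WT library for 8 of 8 markers of each list. Of the T cell markers 7 of 8 had a positive log2 fold change and Cd2 was called, and of the NK markers all 5 tested were positive and Nkg7 and Eomes were called. Cd3d, Cd5 and Cd8b1, and Ncr1, Gzma, Prf1 and Eomes, were at 0 in at least 1 library. Neutrophil markers summed to 21.7 to 32.5 FPKM in TAM-WT and 48.9 to 55.6 in TAM-KO 2 to 4, with Ly6g at or near 0. All 4 tested had a positive log2 fold change, and S100a8 was called (edgeR adjusted p = 0.0481). S100a8 and S100a9, also made by monocytes, were at 73.46 and 80.03 FPKM in TAM-KO 1, above the 9.13 to 15.83 and 5.09 to 13.29 of the other TAM-KO libraries. Melanoma markers summed to 1918 to 4308 FPKM in TAM-WT and 3727 to 4958 in TAM-KO 2 to 4. All 6 melanoma markers had a positive log2 fold change, with a median of 0.57, and none was called. Their part in the difference of the 10 genes was not tested. Dendritic cell markers were also highest in TAM-WT 1 among TAM-WT libraries for 6 of 6 markers. They summed to 7.26 to 17.6 FPKM in TAM-WT and 9.27 to 11.5 in TAM-KO 2 to 4. The markers differed in direction, with 4 of 6 log2 fold changes positive and 2 negative. Xcr1 was called higher in TAM-KO (log2 fold change 1.78, edgeR adjusted p = 0.0435), at 0.06 to 0.34 FPKM in TAM-WT and 0.37 to 0.92 in TAM-KO. Without TAM-WT 1, a removal that raises the difference of any gene highest there, 6 of the 10 genes were called, beside 4.31% of all genes called higher.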

How the data were processed

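RNA of CD45+F4/80+ TAMs from B16 melanomas was measured in 4 TAM-WT and 4 TAM-KO libraries, assigned to groups from the genotype in the labels. The study sequenced on BGISEQ-500. The submitters' processing notes name HISAT2 2.0.4, Bowtie2 2.2.5, RSEM 1.2.12 and GRCm38.p6. Expected counts, estimated per gene by RSEM, were deposited by the authors and are not normalized. Deposited FPKM values are relative to gene length and mapped reads, and the TPM values they deposited were not used. The authors' table of the whole series also holds their fold changes, p-values and q-values, which were not used. Multi-copy genes share reads, which RSEM divides by estimation.

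The table of TAM-KO 1 lacks 5311 of 21051 genes. Its 1 broken line and 629 displaced values were not used. The series table gave TAM-KO 1 for 1188 of 4214 genes that its own table lacks and the other 7 tables hold. For 2808 of 2808 genes in both tables the FPKM agreed to within 0.006. Filled values enter FPKM means and overlaps, not the test, because the series table lists only genes picked for a difference.

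Expected counts were rounded and fitted with edgeR 4.0.16 in R 4.3.3 (TMM scaling, filterByExpr, glmQLFit and glmQLFTest), the 12572 genes of all 8 tables on 8 libraries and the others on 7, with Benjamini-Hochberg adjustment over both sets and a threshold of 0.05. A DEG also had a fold change of at least 2. Ratios of FPKM were compared by the exact two-sided permutation test. Replicates were farther apart than sampling noise (chi-square per degree of freedom of 6.16 to 30), and none was treated as a library deposited more than once. Fold changes are on the log2 scale of TMM-scaled counts, on which all genes have a median near 0, while FPKM levels are not rescaled.

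The 10 genes and all lists were chosen with earlier results of these data known. Named by rule are the 10 genes, every called list gene, the most abundant gene of a list with no call, the 3 constitutive subunits, Ifng, Irf1 and the 10 genes of most similar pattern with a mean CPM of at least 5. Others were named after their values were seen. Hm13 was not found, and 1 further gene of the lists is not reported here and enters no list count. Cell type markers whose sums are not given above (B cell, fibroblast and endothelial cell) summed in TAM-WT and TAM-KO 2 to 4 to 4.44 to 7.19 and 5.75 to 10.9, 1.5 to 4.73 and 2.21 to 3.55, and 3.52 to 7 and 7.05 to 11.2 FPKM. Alternatives were other scalings, DESeq2 1.42.0, limma 3.58.1 (voom, and log2 of FPKM with a pseudocount of 1 or 0.1), no filter or at least 10 counts in every library, a replicate block, each library left out, 6 libraries (without TAM-WT 1 and TAM-KO 1), TAM-KO 1 filled from the series table and class I paralogs summed. The filled ratios were added after seeing the data.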

Additional observations from a re-analysis of the deposited data

Results flagged for a closer look

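Of 46 groups of 4 libraries examined for a value that stands apart, 1 held one, where about 2.3 are expected by chance at 1 in 20. Ifng was at 2.49 FPKM in TAM-WT 1, and its gap to the nearest other TAM-WT library took up 0.952 of the range of the group. TAM-WT 1 was also the highest TAM-WT library for all 10 class I and immunoproteasome genes and for all 8 T cell, all 8 NK cell and all 6 dendritic cell markers, and the part of these cells was not tested.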

How the results depend on the processing

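The number of the 10 genes called, 4 by edgeR with TMM, was 7 with total-read scaling, 7 with DESeq2, 8 with limma voom with quality weights, 7 with limma on log2(FPKM + 1), 7 on log2(FPKM + 0.1), and 7 on 6 libraries without TAM-WT 1 and TAM-KO 1. The share of all genes called, 9.81% in the main comparison, was 10.9%, 18.2%, 29.2%, 10.7%, 10.3% and 6.35% in the same order. With a replicate block 2 were called (Psmb8 and Psmb9), beside 8.7% of all genes. Leaving out 1 library gave 0 to 6 of the 10 and 0 to 10 of the list genes (8 in the main comparison). The share of higher genes among all calls was 46.6% with TMM, 64.4% with total reads, 69.2% with log2(FPKM + 1) and 68.4% with log2(FPKM + 0.1). The median of all genes was 0.089, 0.089 and 0.106 under those 3 scalings, and the median of the 10 genes was 0.73, 0.74 and 0.75. The log2 difference of Psmb9 to Psmb6 was 1.53 to 1.94 and of Psmb10 to Psmb7 was 0.77 to 1.03 with 1 library left out, and with the replicate block 1.91 and 0.89 (exact permutation of signs, adjusted p = 0.25 for each, which 3 or 4 pairs cannot bring under 0.05). Psmb5 turned to -0.02 on 6 libraries. Of the list genes 31 changed sign in at least 1 alternative, none of them called, and 0 of the 10 genes did. The cause of these shifts was not tested. Same-numbered libraries of the 2 groups had correlations of their deviations of -0.428, 0.041, -0.29 and 0.303, and not every library correlated best with its own number. The labels give no pairing, and so few libraries cannot show whether the numbers pair the mice. With 4 mice a group, TAM-KO 1 incomplete and a spread between TAM-WT libraries as wide as some group differences, a missed call such as that of H2-D1 does not show that the groups are alike.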
